A study of Mus musculus with 60 samples.

Results

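Transcripts of the receptors for glutamate, GABA and glycine were followed across mouse hippocampus and across acute stress. The genes were chosen by symbol alone: the AMPA (Gria), kainate (Grik), NMDA (Grin), delta (Grid) and metabotropic (Grm) glutamate receptors, the GABA-A (Gabr) and GABA-B (Gabbr) receptors, and the glycine receptors (Glra, Glrb). The rule found 43 genes among the 13986 genes of the deposited tables. Of these, 40 were in all 10 tables. Gabrq and Glra3 were not in the 3 treatment tables of dorsal hippocampus, and Gabrr2 was only in those 3 and in the whole-hippocampus Restraint table.

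The mice were C57BL/6, wild type, at postnatal day 105, and sequencing of poly(A) RNA gave 60 libraries in 12 groups of 5. The groups cross whole, dorsal and ventral hippocampus with 4 conditions: untreated Homecage mice, and mice taken 45 minutes after Handling, Restraint or Swim. Each deposited table compares a pair of groups, 9 of them a treatment with Homecage in the same region and 1 the ventral with the dorsal hippocampus of Homecage mice. Single libraries are not analysed here, so a level below is a group mean, and the error comes from the authors' p-value. The 3 treatment tables of a region share their Homecage group.

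Fast excitation in the hippocampus runs through AMPA receptors, which are tetramers of Gria subunits, while NMDA receptors need Grin1 and a Grin2 or Grin3 partner and admit calcium when the cell is already depolarised. Kainate receptors combine Grik1 to Grik3 with the subunits Grik4 and Grik5. The metabotropic receptors act through G proteins, group I mostly after the synapse and groups II and III mostly on terminals. GABA-A receptors are pentamers whose alpha subunit sets their kinetics and place, and the delta subunit is typical of extrasynaptic sites. GABA-B receptors are obligate pairs of Gabbr1 and Gabbr2, and glycine receptors join Glra subunits with Glrb.

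RefSeq promoter windows of 300 bases (GRCm38.p6, 250 before the transcript start and 50 after it) matched 28 of the 43 genes, with 35 windows in all. The windows below are those of genes named in the comparison of regions. Gabra3 and Gabrq are neighbours on the X chromosome and both were higher in ventral hippocampus, Gabrq with few reads. Grm2 and Grin1 were higher in dorsal hippocampus. Gabra4 and Gabrb1 start head to head on chromosome 5 and differed in opposite directions, though neither passed under every alternative described below. Each window is written 5′ to 3′ on the gene's own strand, and capitals mark a GC box, GGGCGG or its reverse complement.
Gabra3 (chrX:72656870-72657169, minus strand): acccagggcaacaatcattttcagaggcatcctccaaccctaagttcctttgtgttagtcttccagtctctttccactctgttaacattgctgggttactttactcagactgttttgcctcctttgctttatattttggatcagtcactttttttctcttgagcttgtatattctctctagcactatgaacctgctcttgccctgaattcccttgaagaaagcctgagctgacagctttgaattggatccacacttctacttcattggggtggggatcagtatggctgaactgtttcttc
Gabrq (chrX:72824928-72825227, plus strand): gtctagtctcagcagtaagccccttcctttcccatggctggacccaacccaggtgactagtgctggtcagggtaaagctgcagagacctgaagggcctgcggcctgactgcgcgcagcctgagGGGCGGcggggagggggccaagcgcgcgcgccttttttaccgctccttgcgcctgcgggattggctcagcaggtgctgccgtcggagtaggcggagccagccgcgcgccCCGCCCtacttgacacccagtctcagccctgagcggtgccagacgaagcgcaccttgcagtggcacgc
Grm2 (chr9:106656060-106656359, minus strand): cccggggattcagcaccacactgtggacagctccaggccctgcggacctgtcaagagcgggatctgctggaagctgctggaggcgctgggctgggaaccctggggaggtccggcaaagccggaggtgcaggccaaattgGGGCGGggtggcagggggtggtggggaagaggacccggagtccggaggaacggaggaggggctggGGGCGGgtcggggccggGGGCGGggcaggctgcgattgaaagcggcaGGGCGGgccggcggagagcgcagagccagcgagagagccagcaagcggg
Grin1 (chr2:25319138-25319437, minus strand): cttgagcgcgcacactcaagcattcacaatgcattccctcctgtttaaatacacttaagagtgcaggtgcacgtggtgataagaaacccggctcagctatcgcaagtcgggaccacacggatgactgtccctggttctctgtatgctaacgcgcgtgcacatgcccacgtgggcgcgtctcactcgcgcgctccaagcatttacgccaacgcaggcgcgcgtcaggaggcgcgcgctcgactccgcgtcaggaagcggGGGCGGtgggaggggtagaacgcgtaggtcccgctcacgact
Gabra4 (chr5:71658259-71658558, minus strand): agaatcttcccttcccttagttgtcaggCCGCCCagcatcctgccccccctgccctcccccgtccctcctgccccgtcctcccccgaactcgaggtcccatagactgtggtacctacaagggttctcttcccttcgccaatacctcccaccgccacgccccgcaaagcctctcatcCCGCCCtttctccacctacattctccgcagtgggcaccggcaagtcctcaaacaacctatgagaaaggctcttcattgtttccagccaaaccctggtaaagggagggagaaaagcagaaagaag
Gabrb1 (chr5:71657671-71657970, plus strand): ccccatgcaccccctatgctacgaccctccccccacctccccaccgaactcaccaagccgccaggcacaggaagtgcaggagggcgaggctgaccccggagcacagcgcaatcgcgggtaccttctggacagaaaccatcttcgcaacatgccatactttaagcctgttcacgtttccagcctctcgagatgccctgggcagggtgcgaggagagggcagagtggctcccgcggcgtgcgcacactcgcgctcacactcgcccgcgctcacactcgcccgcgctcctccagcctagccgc
The GC box was in 20 of the 35 receptor windows, from 19 genes, and in 35.7% of the 32851 windows of all genes. Among those printed, the Grm2 window holds 4, the Gabrq and Gabra4 windows 2 each, the Grin1 window 1, and the Gabra3 and Gabrb1 windows none. GC content was 43.0% in this Gabra3 window and 72.0% in that of Grm2, beside medians of 61.0% over the receptor windows and 52.7% over all windows. The Gabra4 and Gabrb1 starts of these windows lie 387 bases apart. Each gene is transcribed across the start of the other, so the beginnings of both genes overlap. No receptor window held TGACGTCA, the full cAMP response element (1.79% of all windows), GCGTGGGCG, a site of the Egr family (0.612%), or the glucocorticoid response element (0.00913%), on either strand. Such matches describe these letters in these windows and say nothing of binding.

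Levels were set side by side as CPM (counts scaled to a common library total) of the group mean, divided by the kilobases of merged exons, so that genes of different length can be compared. By this measure the AMPA subunit Gria1 was the most abundant receptor transcript in all 3 regions of Homecage mice, at 247 CPM per kilobase in dorsal, 196 in whole and 191 in ventral hippocampus. Gabbr1, the subunit of the GABA-B receptor that binds GABA, came next with 96.4 in dorsal, 88.1 in whole and 90.8 in ventral hippocampus. In dorsal hippocampus it was followed by Gabra5 (67.6), Grin1 (65.8) and Gria2 (62.4), and Gria2 (60.7) and Gabbr2 (54.9) were among the next in ventral hippocampus. Gabra5 is an alpha subunit prominent in hippocampal pyramidal cells, and Gria2 makes AMPA receptors impermeable to calcium. At the other end, Glra3 was at 0.0707 and Gabrq at 0.0334 CPM per kilobase in dorsal hippocampus. Group means carry no spread here, so the order of neighbours such as Gabra5 and Grin1 has no test.

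**Figure D1:**
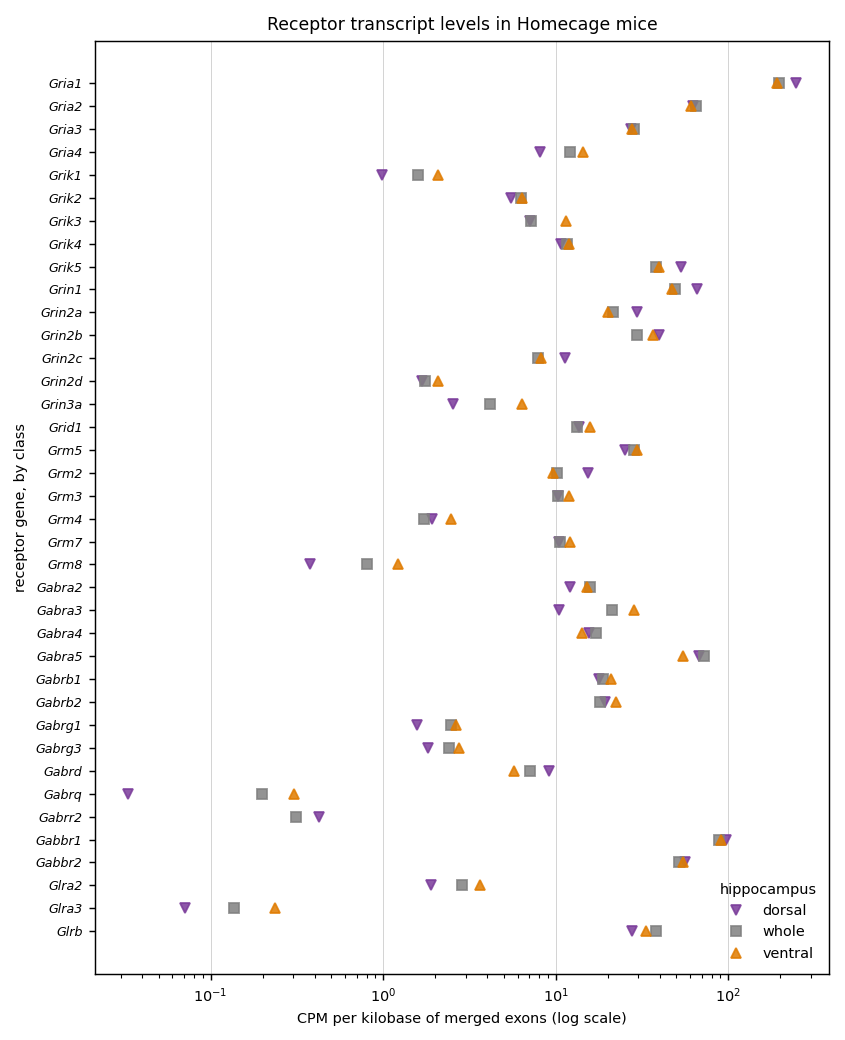
Level of 38 of the 43 receptor transcripts in Homecage mice, as the group mean in CPM per kilobase of merged exons on a log axis, with genes ordered by class and a symbol for each region. Gria1 lies far to the right in all regions, and the ventral symbol lies to the right of the dorsal one for Gabra3, Grin3a, Grm8, Glra3 and Gabrq.

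Ventral and dorsal hippocampus differed in most receptors. Of the 42 receptors in that table, 33 passed the authors' adjusted p of 0.05, or 78.6%, where 38.4% of the 13754 genes passed. Ventral levels were higher for 22 and lower for 11, against 18.4% higher and 20.0% lower over all genes. Gabrq and Glra3 are among the 22, though no dorsal treatment table held them. Their ventral reads brought them into this comparison, which favoured a ventral lead beforehand. The median log2 fold change, ventral over dorsal, was 0.18 over the receptors and -0.01 over all genes, and the median absolute value was 0.33 against 0.16. Among genes with a mean count of at least 100, 39.8% passed. When a trend on base composition, described with the NMDA subunits below, was subtracted, 16 receptors were higher and 10 lower, where 31.7% of all genes passed. Bulk RNA cannot tell fewer cells of a type from less RNA per cell, and this holds for every difference below.

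Markers of region and cell type differed as well. Of the markers of ventral hippocampus 4 of 5 were higher and 1 lower ventrally, and of those of dorsal hippocampus 3 of 4 were lower and 1 higher. All 8 dentate granule cell markers were lower in ventral than in dorsal hippocampus, with a summed level of 710 CPM dorsally and 261 ventrally, and so were all 8 oligodendrocyte markers, with 4676 and 3147. Markers of thalamus (5 higher and 1 lower of 7, 124 CPM dorsally and 205 ventrally) and of neocortical layers (6 higher and none lower of 7, 243 and 396) went mostly the other way. Interneuron markers gave 6 higher and 3 lower of 12, with 1046 and 1141 CPM. Microglia markers were lower ventrally in 7 of 8 and higher in none (372 CPM dorsally and 315 ventrally). The pyramidal cell markers were mixed, with 3 higher and 5 lower of 8 for CA2 and CA3 (602 and 574) and 3 higher and 2 lower of 6 for CA1 (695 and 764). Oligodendrocyte precursor markers gave 1 higher and 3 lower of 6, choroid plexus markers 2 lower of 5, astrocyte markers 1 higher and 1 lower of 8, ependymal markers 1 higher of 6, and no endothelial marker of 6 passed. None of these markers was at 0 in either region, and their part in the receptor differences was not tested.

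**Figure D2:**
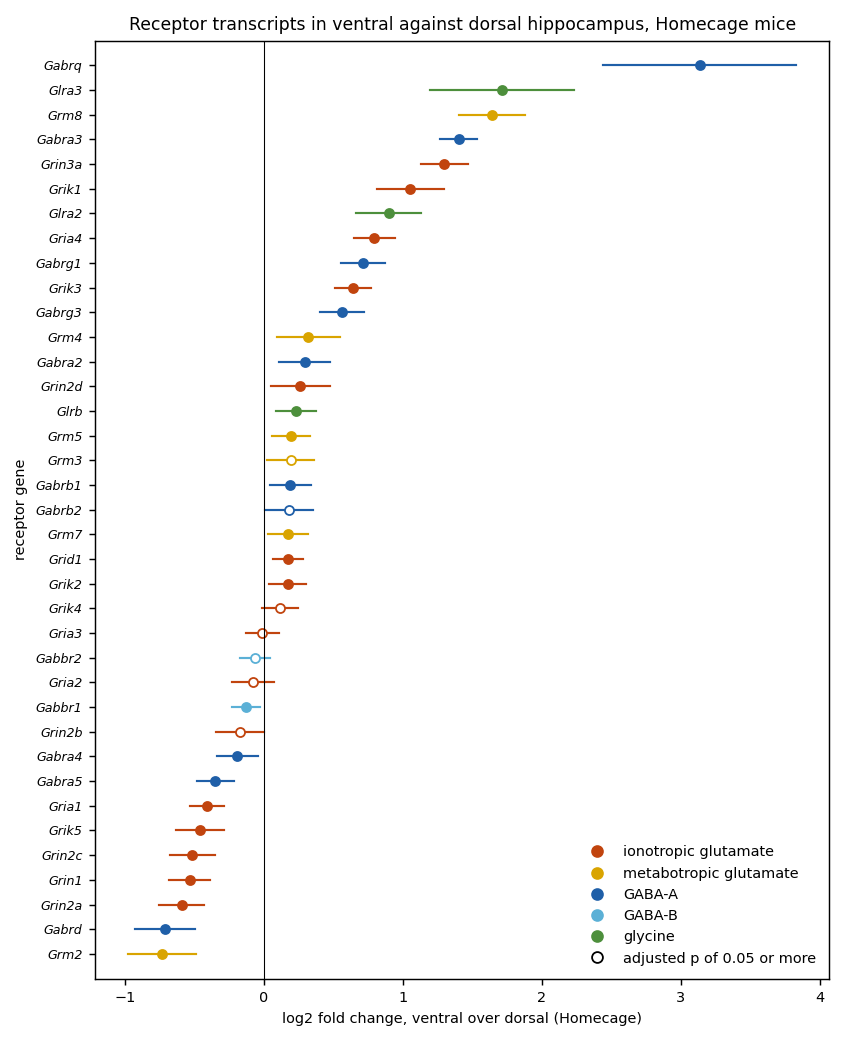
Log2 fold change of 37 of the 42 receptor transcripts, ventral over dorsal hippocampus of Homecage mice, with approximate 95% intervals derived from the deposited p-values. Filled points passed the authors' adjusted p of 0.05 (20 right of zero, 10 left of it), colours mark receptor families, and the scale runs from -0.73 for Grm2 to 3.14 for Gabrq.

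AMPA subunits split. Gria1, the most abundant, had a mean of 34845 estimated counts in dorsal and 28856 in ventral Homecage hippocampus in the authors' deposited table, a log2 fold change of -0.41 (implied SE 0.06, adjusted p 9.28e-10). Gria4, a subunit with fast gating found in many interneurons and in thalamus, rose from 1188 to 2275, or 0.80 (SE 0.07, adjusted p 3.79e-25), in the authors' deposited table. Gria2 and Gria3 did not pass, at -0.08 and -0.01 in the authors' deposited table, with adjusted p-values of 0.451 and 0.929. In level per length, Gria1 made up 71.6% of the AMPA sum dorsally and 65.0% ventrally, and Gria4 2.34% and 4.91%.

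Among NMDA subunits, Grin1, Grin2a and Grin2c were higher dorsally, and Grin3a and Grin2d ventrally. Grin1, the obligatory subunit, went from 14915 dorsally to 11400 ventrally (-0.53, SE 0.07, adjusted p 1.63e-11) and Grin2a, the partner of mature synapses, from 12405 to 9043 (-0.59, SE 0.08, adjusted p 1.11e-11) in the authors' deposited table. Grin2c followed at -0.51, while Grin2b, the partner that dominates early in life, did not pass at -0.17 (adjusted p 0.119) in the authors' deposited table. Grin3a, which lowers calcium entry when it joins a receptor, went the other way with 727 dorsally and 1958 ventrally, or 1.30 (SE 0.09, adjusted p 2.06e-48) in the authors' deposited table. Grin2d, found in many interneurons, was 0.26 higher ventrally in the authors' deposited table. A smooth trend (lowess) of the fold change on the GC content of transcripts, fitted over all genes, was also taken off each table. With it subtracted, Grin1 was at -0.33, Grin2d at 0.75 and Grin2c at -0.18, the last no longer past the test (adjusted p 0.0753). Grin3a made up 1.68% of the NMDA sum per length dorsally and 5.30% ventrally.

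Among kainate receptor subunits, Grik1, Grik2 and Grik3 were higher ventrally and Grik5 was higher dorsally. Grik1 went from 153 to 350 (1.05, SE 0.12, adjusted p 3.2e-16) and Grik3 from 1489 to 2576 (0.64, SE 0.07, adjusted p 1.52e-20) in the authors' deposited table. Grik2, the main channel subunit of the mossy fibre synapse, was 0.17 higher ventrally (adjusted p 0.0336) in the authors' deposited table. Grik5 was lower ventrally at -0.46 (SE 0.09, adjusted p 1.63e-06), and Grik4 did not pass at 0.12 (adjusted p 0.154) in the authors' deposited table. With the GC trend subtracted, Grik2 (0.07, adjusted p 0.474) and Grik5 (-0.16, adjusted p 0.15) did not pass and Grik4 did (0.18, adjusted p 0.0298). Grid1, a delta receptor that binds cerebellins and organises synapses, was 0.17 higher ventrally in the authors' deposited table (adjusted p 0.0076).

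Metabotropic receptors divided by group. All 3 measured group III receptors, which sit on terminals and restrain release, were higher ventrally. Grm8 led with 87.4 estimated counts dorsally and 302 ventrally (1.64, SE 0.12, adjusted p 1.34e-39), Grm4 was at 0.32 and Grm7 at 0.18 in the authors' deposited table. Grm2, a group II receptor abundant in dentate granule cells, went from 1765 to 1175 (-0.73, SE 0.12, adjusted p 3.74e-08) in the authors' deposited table, beside the lower ventral level of the dentate granule cell markers. Its group II partner Grm3, largely glial, did not pass at 0.20 (adjusted p 0.0575) in the authors' deposited table. Grm5, of group I, was higher ventrally at 0.20 (adjusted p 0.016) in the authors' deposited table. Subtracting the GC trend moved Grm4 to 0.58 and left Grm5 (0.15, adjusted p 0.0966) and Grm7 (0.15, adjusted p 0.102) short of the test. The Grm2 share of the group II sum per length was 60.1% dorsally and 44.5% ventrally.

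Among GABA-A alpha subunits, Gabra3 and Gabra2 were higher ventrally and Gabra5 and Gabra4 lower. Gabra3 had 959 estimated counts dorsally and 2793 ventrally, or 1.40 (SE 0.07, adjusted p 2.8e-92), the lowest adjusted p of any receptor in the authors' deposited table. Gabra2, an alpha subunit of the axon initial segment, was 0.29 higher ventrally in the authors' deposited table. Gabra5, which carries tonic inhibition in pyramidal cells, was lower at -0.35 (SE 0.07, adjusted p 1.97e-06) and Gabra4, a partner of delta, at -0.19 (adjusted p 0.0342) in the authors' deposited table. The Gabra3 share of the alpha sum per length was 7.44% dorsally and 18.5% ventrally, and that of Gabra5 48.1% and 35.4%. Gabra2 (0.16, adjusted p 0.185) did not pass once the GC trend was subtracted, and Gabra4 did not pass under scaling to total counts (-0.15, adjusted p 0.0991).

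Among the other GABA-A subunits, Gabrg1, Gabrg3, Gabrb1 and Gabrq were higher ventrally and Gabrd was lower. Gabrg1 and Gabrg3, the rarer gamma subunits, were higher ventrally by 0.72 (SE 0.08, adjusted p 3.33e-17) and 0.56 (SE 0.08, adjusted p 4.67e-11) in the authors' deposited table. The beta subunit Gabrb1 passed at 0.19 (adjusted p 0.0318), while Gabrb2 at 0.18 (adjusted p 0.0947) did not in the authors' deposited table. After subtraction of the GC trend, Gabrb1 did not pass (0.09, adjusted p 0.412). Gabrd, the extrasynaptic delta subunit prominent in dentate granule cells, went from 611 to 412 (-0.71, SE 0.11, adjusted p 1.22e-09) in the authors' deposited table. Gabrq, the theta subunit, had the largest fold of the 42 but few reads, with means of 4.17 and 40.8 estimated counts (3.14, SE 0.35, adjusted p 2.11e-17) in the authors' deposited table. No dorsal treatment table held Gabrq, so it entered this comparison through its ventral reads, which favoured a ventral lead beforehand.

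GABA-B receptors were nearly level between the regions. Gabbr1 was lower ventrally at -0.13 (adjusted p 0.0415) and Gabbr2 at -0.06 (adjusted p 0.363) in the authors' deposited table, and Gabbr1 passed neither with the GC trend subtracted (-0.06, adjusted p 0.394) nor under scaling to total counts (-0.09, adjusted p 0.189). All 3 measured glycine receptor genes were higher ventrally, though Glra3 entered this comparison through its ventral reads. Glra2, an alpha subunit typical of immature neurons, went from 139 to 286 (0.90, SE 0.12, adjusted p 8.44e-13) and Glra3 from 15.2 to 54.6 (1.71, SE 0.26, adjusted p 1.16e-09) in the authors' deposited table. Glrb, the beta subunit that binds gephyrin, was 0.23 higher (adjusted p 0.00569) in the authors' deposited table, and did not pass with the GC trend subtracted (0.14, adjusted p 0.147).

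The treated groups show how far these differences recur in other libraries. For each treatment, the ventral group mean was divided by the dorsal one in CPM, which gives a ratio without a test. Of the 31 receptors that passed in Homecage mice and are held in every dorsal and ventral table, 29 had the same sign after all 3 treatments, or 93.5%, against 81.3% of the 5099 such genes in all. The 2 shares are not matched for size of the difference. In Homecage mice the median absolute log2 fold change was 0.33 over the measured receptors and 0.16 over all genes. Grik5 was an exception, with -0.18 after Handling, -0.03 after Restraint and 0.07 after Swim. For Gabra3 the log2 ratio ran from 1.12 to 1.31 over the 3 treatments, for Grin3a from 1.12 to 1.30, for Grm8 from 0.99 to 1.47, for Grin2a from -0.63 to -0.49 and for Grm2 from -0.78 to -0.46. Whole hippocampus of Homecage mice lay between the dorsal and ventral group means in 23 of 33 receptors (69.7%), close to the 68.1% of all 5240 genes that passed.

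**Figure D3:**
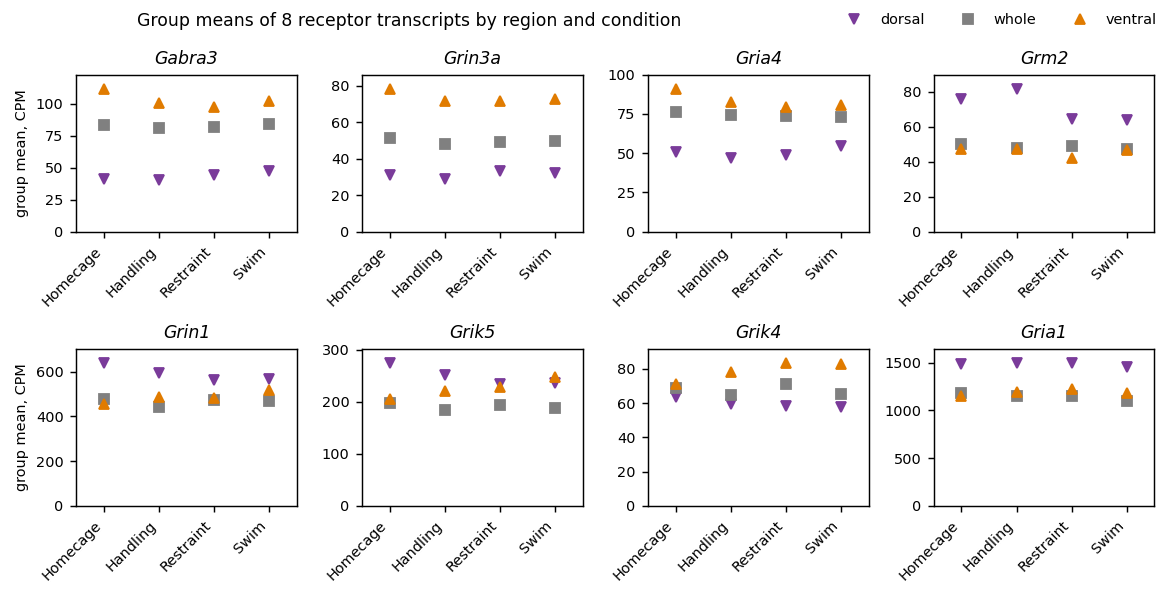
Group means in CPM of 8 receptor transcripts in the 12 groups, each axis starting at 0, with a symbol for each region. Gabra3, Grin3a and Gria4 stay highest in ventral hippocampus and Grm2, Grin1 and Gria1 in dorsal hippocampus in every condition, while the dorsal and ventral symbols of Grik5 cross after Swim.

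The molecules that receptors bind or that move them to synapses were followed as a list of 34 partner genes. In the comparison of ventral with dorsal hippocampus, 11 were higher (32.4%, where 18.4% of all genes were) and 10 lower (29.4%, where 20.0% were), with a median log2 fold change of -0.03. The cerebellins, secreted ligands of the delta receptors, were far higher ventrally, Cbln1 by 2.70, Cbln4 by 1.73 and Cbln2 by 1.40 in the authors' deposited table, beside the ventral lead of Grid1. Cacng5 (-1.36), Cnih2 (-0.96), Cacng8 (-0.82) and Shisa7 (-0.49) were lower ventrally in the authors' deposited table. They were picked after their values were seen. Values of the other AMPA receptor partners on the list are not given for this comparison, so no direction of these partners as a set is stated. Kctd8, an auxiliary subunit of GABA-B receptors, was 0.83 higher and Kctd12 was at -0.30 in the authors' deposited table. Neto1, an auxiliary subunit of kainate receptors, was 0.60 higher ventrally, and the scaffold Dlg4 lay at -0.37 in the authors' deposited table.

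Of 19 measured genes of transmitter synthesis and transport, 8 were higher (42.1%, where 18.4% of all genes were) and 4 lower (21.1%, near the 20.0% of all genes) ventrally. Slc17a6, the vesicular glutamate transporter typical of thalamus, was 1.25 higher, and Slc17a7, that of most cortical and hippocampal cells, was at -0.21 in the authors' deposited table. The enzymes of GABA synthesis Gad2 and Gad1 were higher by 0.27 and 0.21, and the GABA transporter Slc6a11 by 0.41 in the authors' deposited table. Slc17a7 did not pass with the GC trend subtracted (-0.07, adjusted p 0.446).

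Receptor transcripts that passed the test 45 minutes after treatment were all in ventral hippocampus. Over the 9 treatment tables there were 376 receptor values, of which 11 passed (2.93%), from 9 genes, with absolute log2 fold changes between 0.17 and 0.27 in the authors' deposited tables. Over all genes 1746 of 123219 values passed (1.42%). For 354 of the 376, the approximate 95% interval lay within 0.5 log2 units of zero on either side. The immediate early gene Fos passed in all 9 tables, with 1.35 to 2.06 on the log2 scale in the authors' deposited tables, and Sgk1, a kinase induced by corticosteroids, passed in all 9 too.

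Whole hippocampus gave no receptor past the test after any treatment. The counts were 0 of 42 after Handling, 0 of 43 after Restraint and 0 of 42 after Swim, where 0.395%, 0.541% and 0.395% of all genes passed the authors' adjusted p. At an unadjusted p of 0.05, 1, 0 and 1 receptors passed, against 5.06%, 3.92% and 5.2% of all genes. The medians over the receptors were -0.03, -0.04 and -0.04, beside medians of all genes within 0.01 of zero. The most abundant receptor, Gria1, had whole-hippocampus group means of 1183 CPM in Homecage, 1152 after Handling, 1154 after Restraint and 1098 after Swim.

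Dorsal hippocampus likewise gave none past the test, 0 of 41 after each treatment, where 0.125% of all genes passed after Handling, 0.616% after Restraint and 0.447% after Swim. At an unadjusted p of 0.05 the counts were 0, 3 and 8 receptors, against 2.84%, 9.6% and 11.2% of all genes. After Swim, 12 of 13 measured GABA-A genes had a log2 fold change above 0, with a median of 0.15, beside 51.8% of all genes above 0 and a median of 0.01, and none of the 13 passed. These 13 had a median transcript GC content of 43.3%, against 50.3% over all genes, in a table where fold change fell with GC content (rho of -0.60 over all genes). With that trend subtracted, 8 of the 13 were above 0, with a median of 0.03. Grm8 was nearest to the threshold, with 87.4 estimated counts in Homecage and 129 after Swim (0.51, SE 0.14, adjusted p 0.0772) in the authors' deposited table. Gabrr2, a rho subunit at the limit of detection, was at 20.8 and 34.0 (0.65, adjusted p 0.316) in the authors' deposited table.

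**Figure D4:**
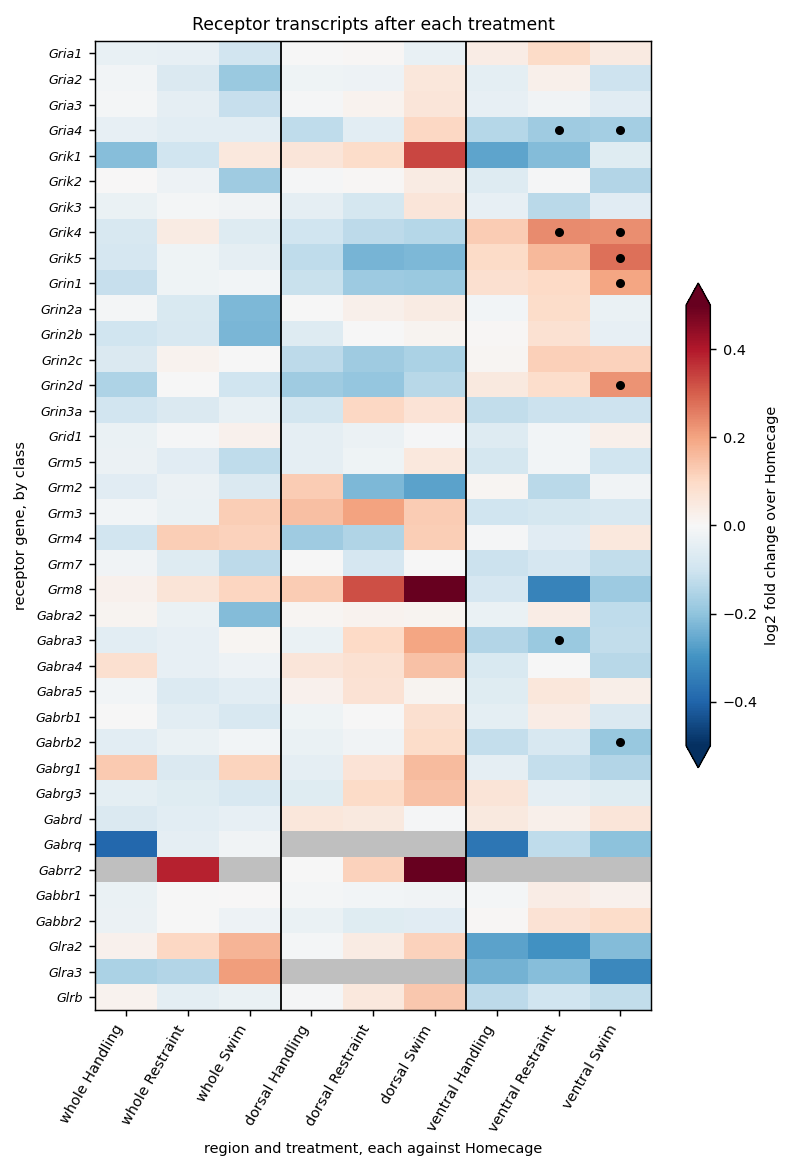
Log2 fold change of 38 of the 43 receptors over Homecage in the 9 treatment tables, with colours ending at 0.5 in either direction, grey for genes a table does not hold and a dot for the 9 of these values that passed the authors' adjusted p of 0.05. All dots lie in the ventral Restraint and ventral Swim columns.

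Ventral hippocampus gave no receptor past the test after Handling (0 of 42, where 0.856% of all genes passed), and 6 had an unadjusted p under 0.05, against 7.28% of all genes. After Restraint 3 of 42 passed, or 7.14%, where 2.39% of all genes did, 1 higher (background 1.48%) and 2 lower (0.916%). Grik4, a kainate receptor subunit that raises glutamate affinity, went from 1779 to 2077 estimated counts, or 0.24 (SE 0.06, adjusted p 0.0102), in the authors' deposited table. Gabra3 went from 2793 to 2420 (-0.18, SE 0.05, adjusted p 0.00852) and Gria4 from 2275 to 1982 (-0.18, SE 0.05, adjusted p 0.0227) in the authors' deposited table. With the GC trend subtracted, 1.74% of all genes passed; Grik4 did (0.22, adjusted p 0.0317), and Gabra3 (-0.15, adjusted p 0.0569) and Gria4 (-0.15, adjusted p 0.129) did not. In the same comparison, the summed dentate granule cell markers went from 261 to 310 CPM with 2 of 8 past the test, 1 marker each of oligodendrocytes and choroid plexus was higher and 1 of CA1 cells lower, and their part in the receptor values was not tested.

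In the same comparison 3 of 34 partners were higher (8.82%, where 1.48% of all genes were) and 3 lower (8.82%, where 0.916% were). Homer3 (0.38), Shisa6 (0.28) and Homer1 (0.24), a scaffold of group I metabotropic receptors with an activity-induced short form, rose in ventral Restraint in the authors' deposited table. Cbln1 fell by 0.82, Cbln4 by 0.66 and Gsg1l, an AMPA receptor auxiliary subunit, by 0.44 in the authors' deposited table. With the GC trend subtracted Homer3 did not pass (0.29, adjusted p 0.0809), and the other 5 did. Homer1 alone of the 34 passed in ventral Handling (2.94%, where 0.813% of all genes were higher), at 0.28 in the authors' deposited table.

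Swim gave the most calls in ventral hippocampus: 8 of 42 receptors, or 19.0%, where 6.94% of all genes passed, 4 higher (background 4.65%) and 4 lower (2.29%). The 4 that rose are subunits of kainate and NMDA receptors. Grik5 went from 5137 to 6091 estimated counts (0.27, SE 0.07, adjusted p 0.00477) and Grik4 from 1779 to 2040 (0.23, SE 0.06, adjusted p 0.00515) in the authors' deposited table. Grin1 went from 11400 to 12767 (0.20, SE 0.05, adjusted p 0.0101) and Grin2d from 345 to 393 (0.23, SE 0.07, adjusted p 0.0373) in the authors' deposited table. Gabrb2 and Gria4 were among the 4 that fell. Gabrb2, a GABA-A beta subunit, went from 3558 to 3042 (-0.19, SE 0.06, adjusted p 0.0264) in the authors' deposited table. Gria4, an AMPA subunit, fell from 2275 to 1975 (-0.17, SE 0.06, adjusted p 0.0439) in the authors' deposited table.

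These calls moved with the base composition of the transcripts. The 4 receptors that rose had a transcript GC content of 53.3% to 65.6% (median 59.6%), and the 4 that fell 39.6% to 43.8% (median 41.9%). The 34 others ran from 35.1% to 61.6% (median 46.2%), so some of them lay in either range. Across the 42 receptors, Spearman's rho between GC content and log2 fold change was 0.82, and across 13728 genes it was 0.70. In dorsal Swim the relation ran the other way, with rho of -0.61 across 41 receptors and -0.60 across 13615 genes. The opposite signs were not particular to Swim. Over all genes rho was 0.45 in ventral Handling and 0.39 in ventral Restraint, and -0.34 in dorsal Handling and -0.47 in dorsal Restraint. The treatment tables of a region share their Homecage group, and ventral over dorsal Homecage itself gave -0.37 over all genes. These are correlations across genes of the same libraries, which are not independent replicates. After the trend was subtracted, 0 of 42 receptors passed in ventral Swim, where 0.801% of all genes did. Grik4 was nearest, at 0.19 (adjusted p 0.104), while Grik5 was at 0.06, Grin1 at 0.04, Gabrb2 at -0.10 and Gria4 at -0.08, and Grin2d changed sign to -0.11. Whether the relation to GC content arose in the tissue or in the making of the libraries was not tested. The thalamus markers gave 3 lower and none higher of 7 in ventral Swim, with 205 CPM in Homecage and 178 after Swim, beside the receptors that fell. Beside those that rose, 2 of 8 dentate granule cell markers were higher and none lower (261 and 284 CPM), and 2 of 6 oligodendrocyte precursor markers were higher and none lower (248 and 268 CPM). The lists for interneurons, CA1 cells, neocortical layers, oligodendrocytes and microglia had 1 marker higher each, and that for CA2 and CA3 cells had 1 lower. The part of these markers in the receptor values was not tested either.

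**Figure D5:**
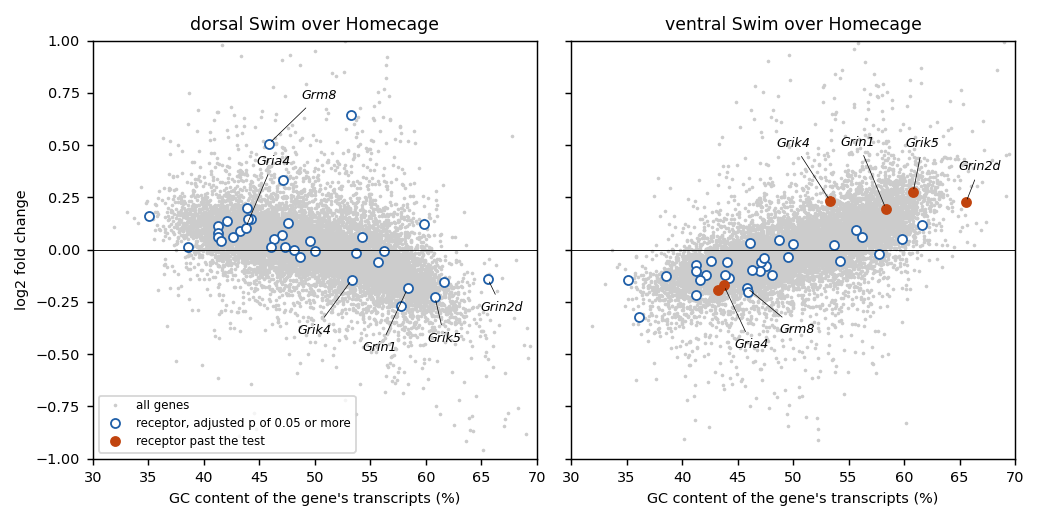
Log2 fold change over Homecage after Swim against transcript GC content in dorsal (left) and ventral (right) hippocampus, with all genes in grey, genes beyond 1 log2 unit not drawn, and 38 of the receptors, as far as held, as circles. The 6 filled receptors that passed in ventral Swim lie from 53.3% GC upward when higher and up to 43.8% when lower. Open receptors in that panel run from 35.1% to 61.6%, so they lie in both ranges too. The slope is opposite in dorsal Swim.

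The partners that passed in ventral Swim were 4 of 34, all higher (11.8%, where 4.65% of all genes were higher). They were Cnih2 (0.31), Cacng8 (0.24), Shisa6 (0.20) and Shisa7 (0.13), auxiliary subunits of AMPA or GABA-A receptors, in the authors' deposited table. None of them passed after the GC trend was subtracted, with adjusted p-values from 0.159 for Shisa6 to 0.993 for Shisa7. Slc17a6 fell by 0.47 in ventral Swim and rose by 0.66 in dorsal Swim in the authors' deposited tables, and both held with the trend subtracted (-0.40 and 0.60). Cbln2 was 0.63 higher in dorsal Swim in the authors' deposited table. No other partner or transmitter gene passed in a treatment table.

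The ventral response was then set against the dorsal one gene by gene, as the ventral log2 fold change less the dorsal one, with an error from both. All treatments use the same ventral and dorsal Homecage groups, so a gene that differs for more than 1 treatment is not independent evidence. For Handling, 0 of 40 receptors differed, where 0.0889% of 13500 genes did. For Restraint 2 of 40 differed, where 1.98% of genes did: Grik5 was at -0.23 dorsally and 0.16 ventrally (difference 0.39, SE 0.11, adjusted p 0.0252), and Grik4 at -0.13 and 0.24 (0.37, SE 0.09, adjusted p 0.0152). For Swim 8 of 40 differed, where 10.2% of 13533 genes did. Grik5 (0.50, SE 0.11, adjusted p 0.00199), Grin1 (0.38, SE 0.10, adjusted p 0.00524) and Grik4 (0.38, SE 0.10, adjusted p 0.00488) were higher ventrally than dorsally in their response. The other 5 were lower, among them Grm8, Gabra3 and Gabra4, with Grm8 at 0.51 dorsally and -0.18 ventrally (difference -0.69, SE 0.18, adjusted p 0.00656). With the GC trend subtracted from both tables, no receptor differed for Restraint (0.0371% of genes) or for Swim (0.2% of genes). The values of Grik4 were then 0.33 for Restraint (adjusted p 0.129) and 0.30 for Swim (adjusted p 0.222), and that of Grm8 was -0.57 for Swim (adjusted p 0.222), beside 0.37, 0.38 and -0.69 before the subtraction. The values of Grik5 (0.08 for Restraint and 0.08 for Swim) and Grin1 (0.09 for Swim) were closer to zero, and Gabra3 (-0.15) and Gabra4 (-0.13) lay between.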

How the data were processed

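RNA-seq of 60 libraries in 12 groups of 5 was used through 10 tables in which the authors had compared 2 groups each. Per the file headers, the deposited tables give each group's mean estimated count, the fold change as a ratio, its log2 value, and a p-value with its Benjamini-Hochberg adjustment. For the authors' scaling, test, aligner and counting program, the sources used here give no name. Bowtie 0.12.2 and mm8 appear in the submitters' processing notes, with no role stated. The deposited tables hold 13610 to 13784 genes after 144 to 148 repeated entries were dropped, and no gene has a sum of both means under 22.0. Some receptors enter the counts and are not reported one by one here.

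Calls are the authors' adjusted p at 0.05 over all genes; the planned count tests need libraries and could not be used. The implied SE is the absolute log2 fold change divided by the two-sided normal score of its p, so it and the 95% intervals are approximate. For regional differences in response, the 2 log2 fold changes were subtracted (ventral less dorsal), their errors combined in quadrature, and normal p-values adjusted over all genes in both tables. Whether equal numbers share a mouse is not in the labels, and any such pairing was left out. Nothing in the labels beyond the series' 5 mice per condition describes the replicates, so p-values measure the spread between these libraries. CPM is a deposited mean over its group's total, scaled as usual (totals of 20.1 to 25.2 M counts), and levels per length use merged exons. GENCODE M21 (GRCm38) gave exon length and GC content (at least 99.76% of gene IDs matched). Alternatives used adjusted p thresholds of 0.01 and 0.1, total-count scaling, and a lowess trend on GC content or length subtracted (fraction 0.3). Others used a minimum mean count of 100, repeated entries kept, and, for regional differences, a Student quantile with 8 degrees of freedom in the implied SE only. The code was tested on simulated data (Python 3.11.15, pandas 2.3.3, scipy 1.17.1, statsmodels 0.14.6).

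The members, lists and tests were chosen with earlier results of these data known. Genes were named when among the 10 with the lowest adjusted p per table and direction, or on a list of 18 common subunits. Glra3, Grm4, Grm7, Grin2d and Gabrb1 in the regional table, members named where they did not pass, and the single partner and transmitter genes were chosen after their values were seen. Reads were not stated to be counted by strand, so genes with an antisense neighbour may hold its reads.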

Additional observations from a re-analysis of the deposited data

Results flagged for a closer look

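The 8 receptor responses below differed between ventral and dorsal hippocampus by a test of the difference itself (ventral minus dorsal log2 fold change, adjusted over all genes in both tables). For Restraint these were Grik4 at 0.367 (adjusted p 0.0152) and Grik5 at 0.394 (adjusted p 0.0252). For Swim, Grik5 differed by 0.5 (adjusted p 0.00199), Grin1 by 0.381 (adjusted p 0.00524) and Grik4 by 0.376 (adjusted p 0.00488). The GABA-A subunits gave -0.320 for Gabra3 (adjusted p 0.024) and -0.285 for Gabra4 (adjusted p 0.0454) after Swim. Grm8 gave -0.689 (adjusted p 0.00656) after Swim. None of the 8 passed once both tables were freed of their trend on GC content, but their sizes then differed. Grik4 was at 0.33 for Restraint and 0.30 for Swim and Grm8 at -0.57 for Swim, while Grik5 was at 0.08 for either treatment, Grin1 at 0.09, Gabra3 at -0.15 and Gabra4 at -0.13. Restraint and Swim were set against the same dorsal and ventral Homecage groups, so their values are not independent of each other. Those Homecage groups also gave the comparison of ventral with dorsal hippocampus.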

How the results depend on the processing

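Ventral against dorsal hippocampus gave 22 receptors higher and 11 lower in the authors' deposited table, and over the alternatives 16 to 25 higher and 9 to 11 lower. The cause of the changes below was not tested. With the GC trend subtracted, the counts went to 0 for the regional difference in Restraint response (2 as reported) and in Swim response (8), for ventral Restraint lower (2), and for ventral Swim higher (4) and lower (4), and Grin2d in ventral Swim reversed to -0.114. At an adjusted p of 0.01, ventral Restraint had 0 higher and 1 lower, and ventral Swim 2 higher and 0 lower. At 0.1, dorsal Swim had 1 higher (0 as reported), and 14 differed between regions in Swim response. The Student quantile gave 7 for Restraint and 15 for Swim response. It made the implied SE smaller while the p-value still came from the normal distribution, so these counts do not show that more receptors differed. In the length-trend alternative, Gabra4 in the Swim difference (-0.260, adjusted p 0.0761), Gria4 in ventral Swim (-0.161, adjusted p 0.0575), and Gabrb1 (0.159, adjusted p 0.0821) and Grik2 (0.139, adjusted p 0.0921) in the regional table no longer passed. Under total-count scaling Grik2 passed in ventral Swim (-0.155, adjusted p 0.0383). The other tables' counts of 0 stayed at 0 in every alternative run apart from that dorsal Swim value. Leaving out each replicate was not run, because single libraries are not analysed here. No paired analysis was possible because the tables hold group means only. Intervals are widest for Gabrq, Glra3 and Gabrr2, whose counts are low.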

Other observations

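GABA-A genes stand in clusters, and the log2 fold changes of neighbours differed in sign in the clusters on chromosomes 5 and 7. On chromosome 5, ventral over dorsal log2 fold changes in the authors' deposited table were 0.72 for Gabrg1, 0.29 for Gabra2, -0.19 for Gabra4 and 0.19 for Gabrb1, in genome order. Gabra2 and Gabrb1 did not pass with the GC trend subtracted, nor Gabra4 under scaling to total counts, so the opposite signs there are uncertain. On chromosome 7 the authors' deposited table gives 0.56 for Gabrg3 and -0.35 for Gabra5. On the X chromosome, Gabra3 at 1.40 and its neighbour Gabrq at 3.14 were both higher in the authors' deposited table. Gabrq had few reads and was held there through its ventral ones.

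Several receptor genes share exon bases with a gene on the opposite strand in GENCODE M21. The overlap is 1307 bases for Grin1 (with Grin1os), 643 for Grin2d and 470 for Grm2, and 46 between Gabra4 and Gabrb1. Without counting by strand, reads of these bases cannot be told apart, so the values of these genes are uncertain to that extent.

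Transcripts of the choroid plexus marker Ttr rose by 5.39 in ventral Handling and by 4.94 in dorsal Restraint in the authors' deposited tables. Ttr also passed in whole hippocampus, at 2.20 after Handling and 1.86 after Restraint. No receptor passed in these comparisons.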
